A study of Mus with 6 samples.

Results

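The miR-30 family was followed through small RNA libraries of mouse adipocytes, the fat-storing cells of adipose tissue. Its members were the 9 mature names mmu-miR-30a-5p, mmu-miR-30a-3p, mmu-miR-30b-5p, mmu-miR-30c-5p, mmu-miR-30c-2-3p, mmu-miR-30d-5p, mmu-miR-30e-5p, mmu-miR-30e-3p and mmu-miR-30f (the prefix, for mouse, is left out below), taken by exact name from the first column of each table. All 9 were present in each of the 6 tables, out of 929 known miRNA names that the tables share. A further 3 names of the family, miR-30b-3p, miR-30c-1-3p and miR-30d-3p, are not among the members and appear below only as the other arm of their precursor. The exposed group was 3 libraries of wild-type C57BL/6 adipocytes under chronic intermittent hypoxia (CIH), in which oxygen drops again and again as it does in sleep apnoea. The control group was 3 libraries of wild-type C57BL/6 adipocytes without it. The labels do not say which fat depot the cells came from, the age or sex of the animals, whether the cells were exposed in the animal or in culture, or whether the libraries of a group came from separate animals.

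As background, a miRNA precursor is a hairpin whose arms give a 5p and a 3p strand. The strand that is kept in the silencing complex, the guide, pairs with messenger RNAs through its seed near the 5′ end, and the other strand, the passenger, is mostly degraded. The 5p strands of the family share a seed and so can bind the same targets, while the 3p strands have a different one. In human adipose-derived cells miR-30a and miR-30d are known to favour adipocyte differentiation by targeting RUNX2, a factor of bone formation. In mouse fat miR-30b and miR-30c are known to favour the thermogenic programme by targeting Nrip1, which codes for the corepressor RIP140.

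The precursors lie in 3 places on the GRCm38 genome, according to a RefSeq gene table. Mir30a (chromosome 1, 23272269 to 23272339) and Mir30c-2 (chromosome 1, 23291701 to 23291784) are 19361 bases apart, with no other annotated gene of that table spanning either one. Mir30b (chromosome 15, 68337415 to 68337510) and Mir30d (chromosome 15, 68341208 to 68341289) are 3697 bases apart, also outside other annotated genes. Mir30c-1 (chromosome 4, 120769534 to 120769622) and Mir30e (chromosome 4, 120772606 to 120772697) lie within the span of Nfyc, which codes for a subunit of the CCAAT-binding factor NF-Y. Mir30f is listed at exactly the span of Mir30e. The strand miR-30c-5p can come from Mir30c-1 or Mir30c-2, so it cannot be assigned to chromosome 4 or chromosome 1. The 5p strands of miR-30a, miR-30d and miR-30e are nearly identical in sequence, and how reads matching more than one name were counted is not given in the sources used here. How reads divide among these names is uncertain to that extent.

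The libraries held between 6291101 and 11264151 counts. Levels below are CPM, each count divided by the total of its table and scaled up by the same factor in all 6 libraries. A count of 3, taken as the floor for counting error, was worth 0.266 to 0.477 CPM, and every member was far above it in each library. The 2 libraries numbered 3 stand apart from the 4 libraries numbered 1 and 2 and list other names (1186 against 1053), so values are given for these sets separately as well as together. The labels do not say what the number stands for. Adipocyte-linked miRNAs fixed as a check (miR-143-3p, miR-148a-3p, miR-103-3p and miR-378a-3p, none of them specific to adipocytes) were all present. They summed to 175894, 153586 and 316432 CPM in CIH libraries 1, 2 and 3 and to 224675, 233062 and 597020 CPM in control, and each of the 4 was lower in CIH within each number. miR-148a-3p alone had 249065 CPM in CIH library 3 and 493520 CPM in control library 3, against 28100 to 55275 CPM in the libraries numbered 1 and 2. The CPM values of a library sum to a fixed total, so a part of that size by itself lowers the others. The 4 leukocyte markers summed to at most 3.27 CPM with CIH and 4.29 CPM without it, and 3 of them (miR-142a-3p, miR-142a-5p and miR-223-3p) were at 0 in at least 1 library.

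The family took a smaller part of each CIH library than of any control library. The 9 names together made up 2.51%, 3.21% and 3.47% of CIH libraries 1, 2 and 3, and 4.0%, 5.0% and 5.58% of control libraries 1, 2 and 3. These ranges do not overlap, but they rest on total counts. After TMM scaling, which rescales library totals before edgeR's tests, CIH library 2 lay above control library 1, so the ranges overlapped. Its mean summed level differed by -17997 CPM (CIH minus control), and that of miR-30a-5p alone by -17768 CPM. miR-30a-5p and miR-30d-5p together held 81.9% to 87.4% of the family in CIH and 84.3% to 92.4% in control. In bulk RNA, fewer cells of a type and less RNA per cell cannot be told apart.

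miR-30a-5p, the guide strand of Mir30a, was less abundant in each of the 3 CIH libraries than in any of the 3 controls. It stood at 9258, 13371 and 8014 CPM in CIH libraries 1, 2 and 3 and at 19367, 24701 and 39880 CPM in control libraries 1, 2 and 3. CIH averaged 10214 ± 2804 CPM and control 27982 ± 10643 CPM (SD, n = 3 each). In edgeR's quasi-likelihood test over all 6 libraries the log2 difference of CIH minus control was -1.78 (SE 0.66), which did not pass Benjamini-Hochberg adjustment over 456 miRNAs (adjusted p = 0.833). Without control library 3 the difference was -0.95. It ranked between the 10th and the 15th most abundant known miRNA in CIH, and between the 5th and the 10th in control. It was the only member whose CPM ranges did not overlap between the groups, and it was on the lower side, as were 3.73% of all tested miRNAs (11.2% in either direction).

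The other strands from chromosome 1 differed mainly in the libraries numbered 3. miR-30a-3p, the passenger strand of Mir30a, stood at 201, 139 and 218 CPM in CIH and at 199, 186 and 1221 CPM in control. miR-30c-2-3p, the passenger strand of Mir30c-2, stood at 65.2, 52.6 and 37.7 CPM in CIH and at 85.5, 63.9 and 257.8 CPM in control. For both strands control library 3 lay far above the other 5 libraries, which stayed between 139 and 218 CPM for miR-30a-3p and between 37.7 and 85.5 CPM for miR-30c-2-3p. The log2 differences over 6 libraries were -2.12 (SE 0.98) and -1.86 (SE 0.81), with adjusted p = 0.883 and 0.833 in edgeR's test. Without control library 3 that of miR-30a-3p was 0.07, on the other side of 0, and that of miR-30c-2-3p was -0.38. The sum of the 3 muscle markers was also highest in control library 3 (111 CPM), with 11.6 to 38.7 CPM in the other 5 libraries. miR-1a-3p gave most of that sum. miR-206-3p was instead raised in both libraries numbered 3 (CIH 10.2 CPM, control 14.6 CPM) and reached at most 1.36 CPM elsewhere. miR-182-5p, linked to brown or beige fat, had 21485 CPM in control library 3, against 5169 to 6993 CPM in the other 5. This miRNA was picked after values were seen, and most others of its list were not highest in that library. The part of the muscle markers in these values was not tested.

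In CPM the guide strands from chromosome 15 went with miR-30a-5p only in the libraries numbered 1 and 2, where both were lower in CIH. For miR-30b-5p the nearest values there were almost equal, and in the pair numbered 3 both strands were higher in CIH. miR-30d-5p, also known as a regulator of insulin production in mouse beta cells, stood at 11803, 12956 and 22300 CPM in CIH and at 14402, 19045 and 11701 CPM in control. Its groups overlapped, and in CPM control library 3 was the lowest of all while CIH library 3 was the highest. miR-30b-5p, the less abundant neighbour, stood at 298, 347 and 672 CPM in CIH and at 393, 347 and 215 CPM in control, again with the libraries numbered 3 at the extremes. After TMM scaling control library 3 was the lowest for neither strand. The log2 difference of the pair numbered 3 was then 0.13 for miR-30d-5p and 0.84 for miR-30b-5p, against 0.93 and 1.64 with total counts. The log2 differences over all 6 libraries were -0.11 (SE 0.47) for miR-30d-5p and 0.33 (SE 0.44) for miR-30b-5p, and neither passed (adjusted p = 0.988 and 0.970, edgeR). With total counts as the only scaling that of miR-30d-5p was 0.06, so its sign depends on the scaling.

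miR-30c-5p, known to lower lipoprotein secretion by mouse liver, stood at 787, 903 and 2088 CPM in CIH and at 894, 926 and 1190 CPM in control. CIH library 3 was the highest, and the groups overlapped. Its log2 difference over 6 libraries was 0.03 (SE 0.57, adjusted p = 0.991 in edgeR's test), and it was below 0 with size factors of the DESeq2 type (-0.09).

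The strands from the Nfyc locus differed between the library numbers more than between the groups. miR-30e-5p stood at 2585, 4260 and 941 CPM in CIH and at 4601, 4670 and 732 CPM in control, so both libraries numbered 3 lay below the other 4. Its passenger strand miR-30e-3p stood at 103, 80.4 and 282 CPM in CIH and at 76.1, 70.5 and 479 CPM in control. There both libraries numbered 3 lay above the rest. miR-30f stood at 30, 26.9 and 118 CPM in CIH and at 30.4, 29.1 and 169 CPM in control, the same order of sets as for miR-30e-3p. The log2 differences over 6 libraries were -0.27 (SE 0.73), -1.03 (SE 1.04) and -0.98 (SE 1.05) for miR-30e-5p, miR-30e-3p and miR-30f, and none of them passed (edgeR adjusted p = 0.988, 0.934 and 0.934). Without control library 3 the differences of miR-30e-3p and miR-30f had the other sign, at 1.20 and 1.08.

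**Figure D1:**
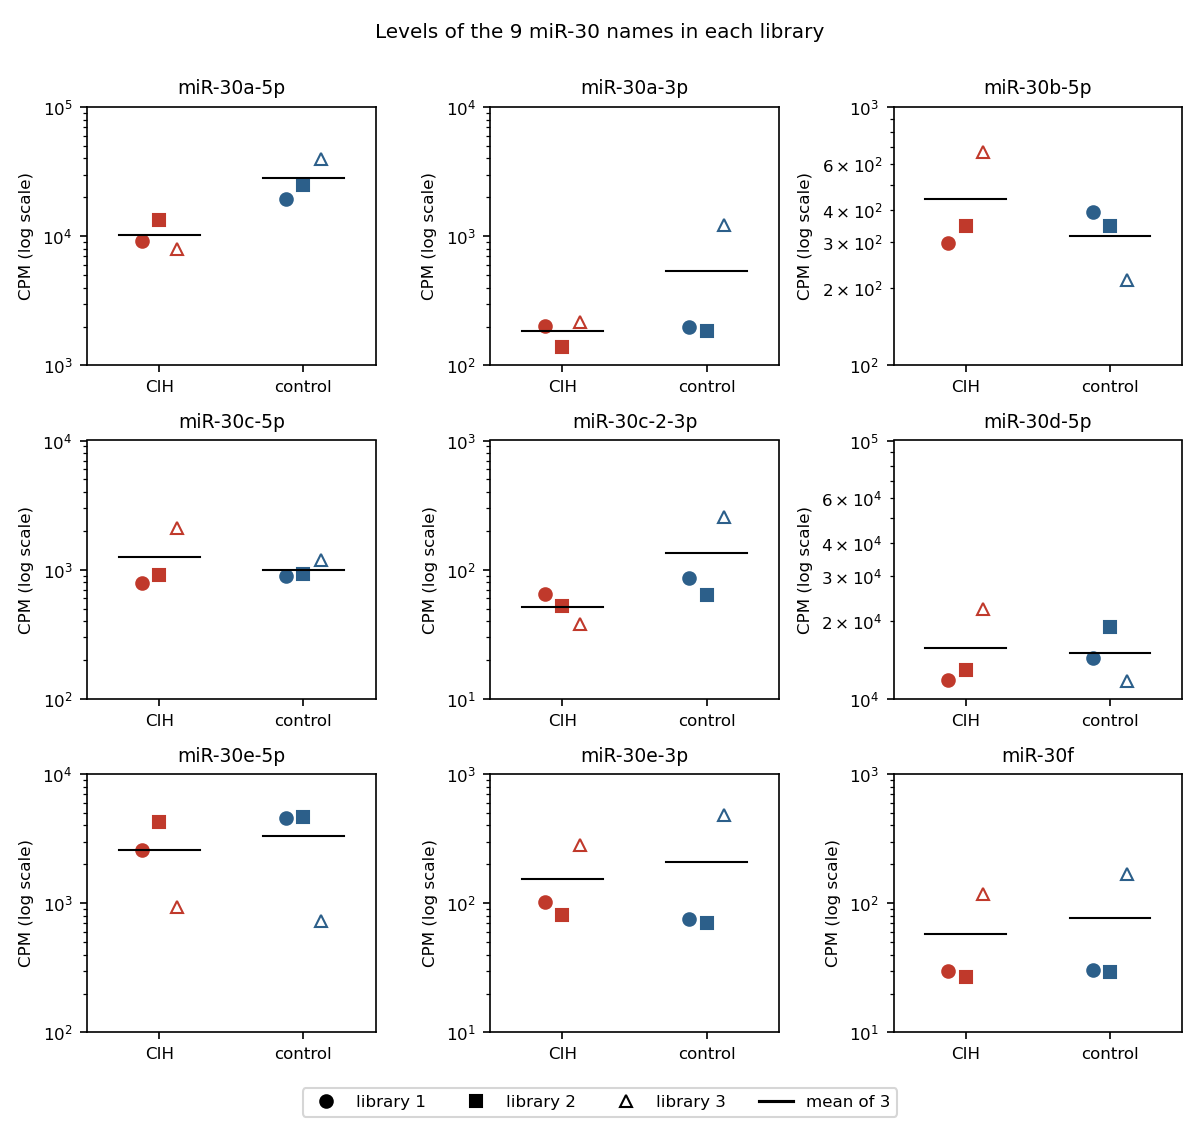
Level of each of the 9 miR-30 names in CPM (log scale) in the 3 CIH and 3 control libraries, with 1 point for each library and a line at the mean of 3. Only for miR-30a-5p do the groups not overlap (8014 to 13371 CPM in CIH, 19367 to 39880 CPM in control), and open triangles (libraries numbered 3) lie away from the rest for miR-30e-5p, miR-30e-3p and miR-30f.

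Over all 6 libraries, edgeR's quasi-likelihood test called 0 of the 9 members and 0 of 456 miRNAs (0%). Before adjustment 23 miRNAs (5.04%) had a p under 0.05, 1 of them a member, miR-30a-5p. DESeq2 called 0 miRNAs (37 before adjustment), as did limma-voom (21 before adjustment). The median log2 difference was -0.98 over the 9 members, 7 of them below 0, and 0.04 over all tested miRNAs.

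Shares within the family do not depend on how libraries are scaled to each other, and here the makeup of the family differed between the groups. miR-30a-5p made up 36.8%, 41.6% and 23.1% of the family in CIH libraries 1, 2 and 3 and 48.4%, 49.4% and 71.4% in control libraries 1, 2 and 3. miR-30d-5p made up 47.0%, 40.3% and 64.3% in CIH and 36.0%, 38.1% and 21.0% in control. For both names the groups do not overlap, with miR-30a-5p lower and miR-30d-5p higher in CIH. miR-30c-5p, at 3.13%, 2.81% and 6.02% in CIH and 2.23%, 1.85% and 2.13% in control, was also higher in every CIH library. So was miR-30b-5p, at 1.19%, 1.08% and 1.94% in CIH and 0.981%, 0.694% and 0.384% in control. The 9 shares sum to the whole, so a lower share of miR-30a-5p by itself raises the others.

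The mean share of miR-30a-5p was 33.9% ± 9.60 in CIH and 56.4% ± 13.0 in control (SD, n = 3 each), a difference of -22.5 percentage points. That of miR-30d-5p was 50.5% ± 12.4 in CIH and 31.7% ± 9.33 in control, a difference of 18.9 points. For these 2 names, miR-30b-5p and miR-30c-5p the two-sided exact permutation p was 0.1, the smallest that 3 against 3 libraries allow, and 0.225 adjusted over the 9 members. The other 5 shares overlapped between the groups, with exact permutation p from 0.5 to 0.9. In the libraries numbered 1 and 2 alone the difference was -9.64 points for miR-30a-5p and 6.63 points for miR-30d-5p, and in the pair numbered 3 it was -48.3 and 43.4 points. The direction was thus the same in both sets for these names, and its size was not.

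The order of the leading members followed the same split. For each read of miR-30d-5p there were 0.784, 1.03 and 0.359 reads of miR-30a-5p in CIH libraries 1, 2 and 3, and 1.34, 1.30 and 3.41 in control libraries 1, 2 and 3. miR-30a-5p was thus the most abundant member in every control library and in CIH library 2, and miR-30d-5p in CIH libraries 1 and 3. The two-sided exact permutation p of this ratio was 0.1, and 0.6 adjusted over 10 ratios examined. miR-30e-5p came next in the libraries numbered 1 and 2, at 9.33% to 13.3% of the family. In the libraries numbered 3 it took 2.71% in CIH and 1.31% in control, below miR-30c-5p in both. miR-30b-5p held more reads than any other remaining member in the libraries numbered 1 and 2 and in CIH library 3, whereas in control library 3 miR-30a-3p, miR-30e-3p and miR-30c-2-3p were ahead of it.

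**Figure D2:**
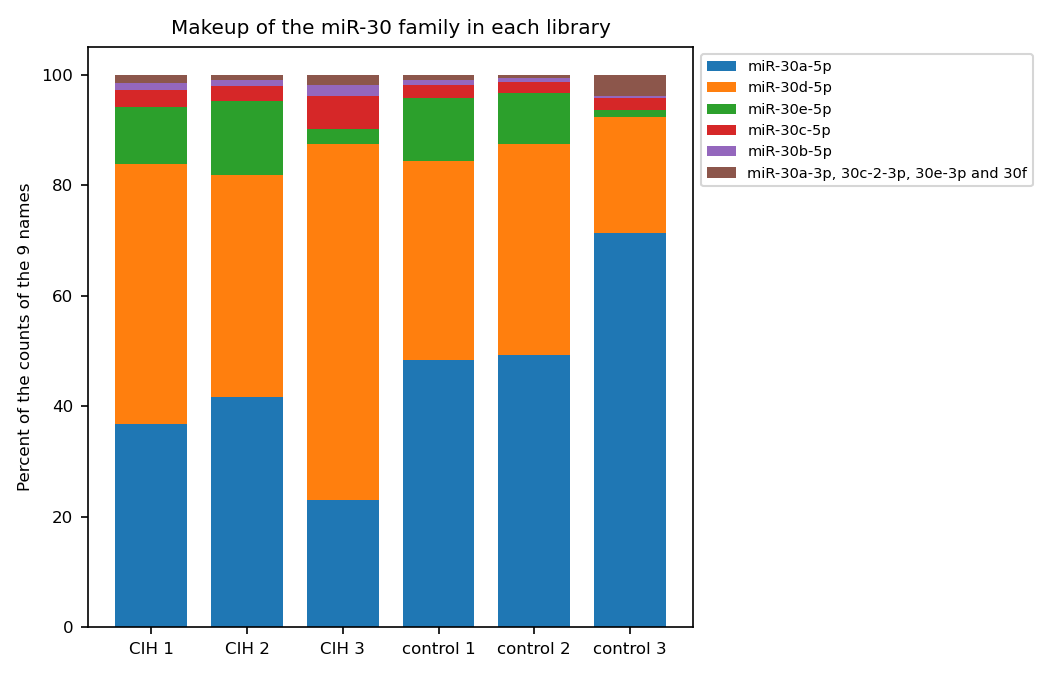
Percent of the counts of the 9 miR-30 names taken by each name, as stacked bars for each CIH and control library. miR-30a-5p takes 23.1% to 41.6% in CIH and 48.4% to 71.4% in control, and miR-30d-5p takes 40.3% to 64.3% in CIH and 21.0% to 38.1% in control.

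Within the libraries numbered 1 and 2 (2 against 2), edgeR's quasi-likelihood test called 0 of the 9 members, against 43 of 459 miRNAs tested (9.37%), of which 4.14% were higher and 5.23% lower in CIH. Before adjustment 1 member and 99 miRNAs (21.6%) had a p under 0.05. The member was miR-30a-5p, with a log2 difference of -0.79 (SE 0.27, adjusted p = 0.0939), or 0.578 of the control level, and it was lower in both CIH libraries than in either control. This value lay near the threshold. With the replicate number as a block it was -0.83 (SE 0.21, adjusted p = 0.00174), with total counts as the only scaling -0.96 (adjusted p = 0.0260), with no filter on low counts -0.83 (adjusted p = 0.00134) and with limma-voom -0.83 (adjusted p = 0.0456), each of which passed. DESeq2 gave -0.81 (adjusted p = 0.112) and size factors of the DESeq2 type in edgeR also gave -0.81 (adjusted p = 0.101), neither of which passed, and leaving out each library in turn gave -1.24 to -0.44 (adjusted p from 3.19e-05 to 0.482).

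None of the other members was called in this set with all 4 libraries. Their log2 differences ran from -0.28 (SE 0.22) for miR-30d-5p to 0.46 (SE 0.26) for miR-30e-3p, with adjusted p from 0.334 to 0.950 in edgeR's test. miR-30e-3p was higher in both CIH libraries than in either control, at 103 and 80.4 CPM in CIH, against 76.1 and 70.5 CPM in control. Its guide miR-30e-5p was lower, at 2585 and 4260 CPM in CIH, against 4601 and 4670 CPM in control. In CPM, miR-30d-5p and miR-30b-5p were also lower in both CIH libraries than in either control. With the TMM factors of all 6 libraries, miR-30d-5p, miR-30b-5p and miR-30e-5p overlapped between the groups here. For miR-30b-5p, CIH library 2 and control library 2 were almost equal (346.9 and 347.1 CPM). The share of all tested miRNAs that separate the groups in this set was not counted. Without CIH library 2, miR-30e-5p was called as well, at -0.82 (adjusted p = 0.00259 in edgeR's test). The median over the 9 members was -0.05, against -0.03 over all tested miRNAs.

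In the pair numbered 3, which has 1 library in each group and so no test, the strands from chromosome 1 were lower in CIH. The log2 difference on the CPM scale, with 0.5 CPM added, was -2.32 for miR-30a-5p, -2.48 for miR-30a-3p and -2.76 for miR-30c-2-3p. These 3 of the 9 members lay below -1, as did 10.5% of all tested miRNAs. The same quantity was 1.64 for miR-30b-5p, 0.93 for miR-30d-5p and 0.81 for miR-30c-5p. Of these only miR-30b-5p lay above 1, as did 41.7% of all tested miRNAs, and the median of all tested miRNAs was 0.74. After TMM scaling, which shifts every value of this pair by -0.80 before the addition, the strands from chromosome 1 stood at -3.12, -3.29 and -3.56. miR-30e-3p and miR-30f, at -0.76 and -0.52 with total counts, stood at -1.56 and -1.32. On that scale 5 of the 9 members lay below -1, as did 19.5% of all tested miRNAs, and none above 1 (23.7%). The sign of miR-30e-5p depends on the scaling, at 0.36 with total counts and -0.44 after TMM scaling.

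The difference between the sets was estimated as an interaction of group and set. Since the pair numbered 3 has 1 library in each group, only the 4 libraries numbered 1 and 2 inform the spread, and whether the pair numbered 3 varies as little was not tested. Counts of library 3 of a group differed from those of libraries 1 and 2 by a chi-square per degree of freedom of 7381 to 13390, against 135 to 404 between libraries 1 and 2. The calls below therefore set these libraries apart and cannot show that CIH acted differently in the sets. edgeR's test called 5 of the 9 members, all with a lower value in the pair numbered 3, against 30.3% of 456 miRNAs in either direction, 13.6% on that side and 16.7% on the other. The interaction was -3.38 (SE 0.45) for miR-30c-2-3p, -3.24 (SE 0.38) for miR-30a-3p and -2.33 (SE 0.47) for miR-30a-5p. It was -2.03 (SE 0.39) for miR-30e-3p and -1.41 (SE 0.47) for miR-30f, and with total counts as the only scaling neither of these was called. miR-30f was also not called without control library 1 or 2 (adjusted p = 0.228 and 0.149) or with no filter on low counts. The 4 other guide strands were not called, with adjusted p from 0.0863 to 0.946. With total counts alone miR-30b-5p and miR-30d-5p were called on the higher side, at 1.84 and 1.36.

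**Figure D3:**
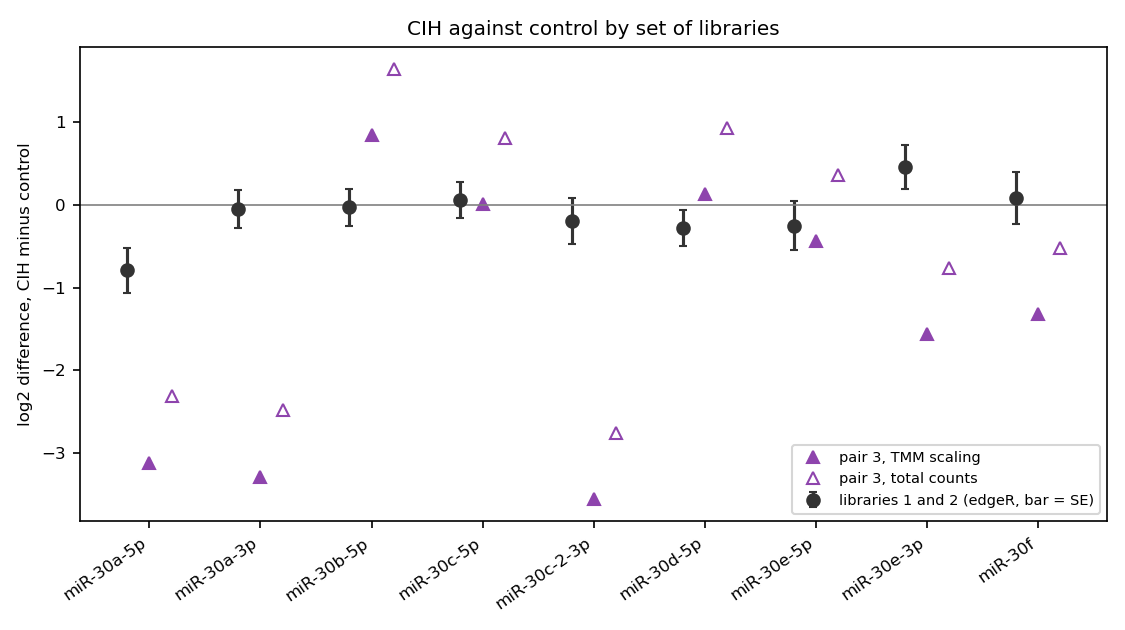
log2 difference of CIH minus control for each of the 9 names, within the libraries numbered 1 and 2 (circles, edgeR, bars are standard errors) and in the pair numbered 3 (triangles, 1 library for each group, so no error), after TMM scaling (filled) or with total counts (open). The names from chromosome 1 (miR-30a-5p, miR-30a-3p, miR-30c-2-3p) lie lowest in the pair numbered 3, at -3.56 to -2.32, and only miR-30a-5p lies more than 2 standard errors from 0 in the libraries numbered 1 and 2.

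Guide strands outnumbered passenger strands in every library for every precursor with both strands counted, but by very different margins. The ratio of counts of 2 strands of one precursor does not depend on library scaling. The 5p members held 98.1% to 99.1% of the family in CIH and 96.2% to 99.3% in control. For miR-30a there were 46.1, 96.3 and 36.8 reads of the 5p strand for each read of the 3p strand in CIH libraries 1, 2 and 3 and 97.5, 133 and 32.7 in control. The groups overlapped (exact permutation p = 0.7). In the pair numbered 3 this ratio was close between the groups, and both strands of Mir30a were lower in CIH there. In the libraries numbered 1 and 2 it was lower in both CIH libraries, where the 5p strand was lower and the 3p strand differed by -0.05 (SE 0.23).

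On a log scale miR-30e had the widest range of arm ratios among the precursors. There were 25.1, 53.0 and 3.33 reads of the 5p strand for each read of the 3p strand in CIH libraries 1, 2 and 3, and 60.4, 66.3 and 1.53 in control. The libraries numbered 3 thus had more even arms, and in both groups their ratio lay far below that of the other libraries. The group difference was not resolved (exact permutation p = 0.8). miR-30e-3p and miR-30f, listed at the same span, kept a narrow ratio, at 3.43, 2.99 and 2.40 in CIH and 2.51, 2.42 and 2.83 in control. Whether their names share reads was not tested, since the sources used here do not give the counting rule.

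For miR-30c-5p the ratio to miR-30c-2-3p, its passenger from chromosome 1, was 12.1, 17.2 and 55.3 in CIH and 10.5, 14.5 and 4.62 in control, with exact permutation p = 0.2. The ratio to miR-30c-1-3p, its passenger from chromosome 4, was 113, 130 and 413 in CIH and 137, 127 and 339 in control, so there the libraries numbered 3 were high in both groups. The 2 passengers thus took different courses in the pair numbered 3, where miR-30c-2-3p had 37.7 CPM with CIH, against 257.8 CPM in control, and miR-30c-1-3p had 5.06 CPM with CIH, against 3.51 CPM in control. miR-30b had 7.53, 16.5 and 9.14 reads of the 5p strand for each 3p read in CIH and 18.3, 18.1 and 8.69 in control. miR-30d was the most one-sided, at 313, 324 and 540 in CIH and 358, 577 and 620 in control. Of the 10 ratios examined none had an adjusted p below 0.6.

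**Figure D4:**
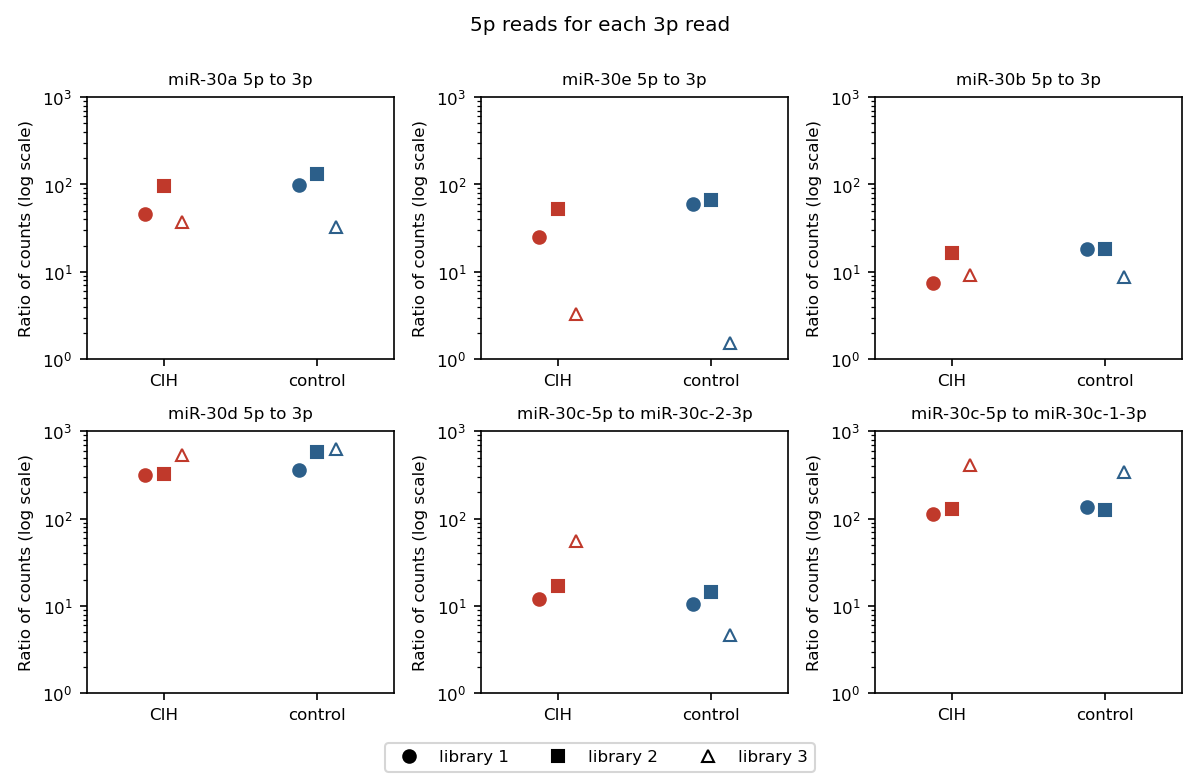
Reads of the 5p strand for each read of the 3p strand (log scale) in each CIH and control library, for the precursors of miR-30a, miR-30e, miR-30b and miR-30d and for miR-30c-5p against its 2 passenger strands. For miR-30e the libraries numbered 3 lie at 3.33 in CIH and 1.53 in control, against 25.1 to 66.3 in the other 4.

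The libraries numbered 3 were also compared with those numbered 1 and 2, with group in the model. edgeR's test called 4 of the 9 members, against 25% of 456 miRNAs. miR-30f was higher in the libraries numbered 3, at a log2 difference of 2.71 (SE 0.38, adjusted p = 0.00961), as was miR-30e-3p at 2.67 (SE 0.48, adjusted p = 0.0176) and miR-30c-5p at 1.21 (SE 0.28, adjusted p = 0.0259). miR-30e-5p was lower, at -1.91 (SE 0.39, adjusted p = 0.0178). The higher side held 11.4% and the lower side 13.6% of all tested miRNAs. These calls are not stable, since without CIH library 2 or without control library 1 the count was 0 of the members and 2 of all miRNAs, and miR-30c-5p was not called with total counts as the only scaling.

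The miRNAs outside the family with the closest profiles differed from guide strand to guide strand. Likeness was the root mean square difference of log2 CPM (0.5 CPM added), centred on each miRNA's mean, over the 6 libraries and among 246 miRNAs with a mean of at least 10 CPM, so a small value means a closer match. For miR-30a-5p the closest were miR-148a-5p (0.26), miR-183-5p (0.40) and miR-101b-3p (0.44). miR-148a-5p stood at 211, 229 and 230 CPM in CIH and at 437, 429 and 817 CPM in control, lower in every CIH library like miR-30a-5p. Within the family miR-30c-2-3p was closest to miR-30a-5p (0.48), and miR-30d-5p lay farther off (0.97). miR-30b-5p and miR-30d-5p, neighbours on chromosome 15, differed by 0.28.

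For miR-30d-5p the closest outside the family were miR-140-3p (0.19), miR-145a-5p and miR-100-5p (both 0.20). For miR-30b-5p they were miR-143-5p (0.15), miR-34c-5p (0.17) and miR-671-5p (0.18). miR-30c-5p lay closest to let-7g-5p (0.15), miR-374b-5p and miR-374c-3p (both 0.18). miR-30e-5p lay closest to miR-1291 (0.23), miR-708-5p (0.24) and miR-107-3p (0.27), all lower in both libraries numbered 3. With 6 libraries in 2 sets, such matches are a description of these libraries.

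Beside the family, 3 lists of miRNAs linked to fat cells were counted. Of 16 other miRNAs reported to favour adipocyte differentiation, 16 were tested and 0 were called over all 6 libraries (edgeR), with a median log2 difference of -0.14. Within the libraries numbered 1 and 2, 1 rose (miR-92a-3p) and 2 fell (miR-148a-3p and miR-210-3p), with a median of -0.18. Of 16 miRNAs reported to hold adipocyte differentiation back, 14 were tested over 6 libraries and 0 were called (median 0.15). Within the libraries numbered 1 and 2, 15 were tested, 3 rose (miR-155-5p, miR-221-3p and miR-222-3p) and 0 fell (median -0.15). Of 19 linked to brown or beige fat, 18 were tested, with 0 called over 6 libraries (median -0.09) and, in the libraries numbered 1 and 2, 1 that rose (miR-155-5p) and 2 that fell (miR-193b-3p and miR-203-3p; median -0.05). Over all tested miRNAs the medians were 0.04 and -0.03, and in the libraries numbered 1 and 2 the share called was 4.14% on the higher and 5.23% on the lower side.

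Markers of other cell types also differed between the libraries. The 7 epithelial markers summed to 170, 126 and 18.6 CPM in CIH libraries 1, 2 and 3 and to 409, 334 and 76.3 CPM in control, lower in CIH within each number, as were the adipocyte-linked sum and miR-30a-5p. Singly, all 7 were lower in CIH in number 1, while in number 2 5 were lower and 2 higher. Of the adipocyte-linked miRNAs, miR-148a-3p was also called lower in the libraries numbered 1 and 2, at a log2 difference of -0.66 (SE 0.21, adjusted p = 0.0348, edgeR). Within the pair numbered 3 only 1 of the 7, miR-205-5p, was lower in CIH (1.86 against 67.8 CPM), 4 were higher, and 2 (miR-141-3p and miR-429-3p) were at 0. The 5 stromal markers summed to 119461, 101869 and 121813 CPM in CIH and to 130145, 147332 and 63644 CPM in control. In the pair numbered 3 the sum and 4 of the 5 markers were higher in CIH, like miR-30b-5p and miR-30d-5p. Higher values in CIH are common in that pair on the CPM scale, where all tested miRNAs had a median log2 difference of 0.74 and 41.7% lay above 1. After TMM scaling miR-30d-5p stood at 0.13. miR-143-3p, which adipocytes also express, made up most of the stromal sum in 5 of the 6 libraries and 45.3% of it in CIH library 3. The 3 muscle markers summed to 38.7, 11.6 and 29.3 CPM in CIH and to 33.4, 12.6 and 111 CPM in control, and in the pair numbered 3 each was lower in CIH, like the strands from chromosome 1. The leading one, miR-1a-3p, stood at 18.4 CPM in CIH library 3 and at 92.4 CPM in control library 3. miR-199a-3p, one of the stromal markers, stood at 42469 CPM in CIH library 3 and at 3220 CPM in control library 3. Endothelial markers summed to 104, 73.1 and 100.1 CPM in CIH, against 137, 92.9 and 33.8 CPM in control. The 3 erythroid markers summed to 135, 60.1 and 21.0 CPM in CIH, against 154, 63.6 and 54.8 CPM in control. The 2 neuronal ones summed to 96.2, 76.0 and 50.8 CPM in CIH, against 181, 86.0 and 51.0 CPM in control. Both sums were lower in CIH within each number, though the neuronal ones were almost equal in the pair numbered 3. Within each number 1 of the 3 erythroid markers was higher in CIH, as was 1 of the 2 neuronal ones in the pair numbered 3. The hepatocyte marker stayed at or below 5.59 CPM in every library. The part of these markers in the results on the miR-30 family was not tested.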

How the data were processed

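Tables of 3 CIH and 3 control libraries were used. The deposited tables hold raw read counts, 1 row for each mature miRNA. Per the file headers 3 of them are FPKM, but the values are whole numbers with unequal totals, and so counts. GRCm38, featureCounts 1.5.0-p3 and DESeq 1.8.3 appear in the submitters' processing notes, with no role. The aligner and the treatment of multiply matching reads are not given there. Predicted names (29 or 70 of each table) were left out. Known names shared by all tables numbered 929 and held at least 99.97% of each library.

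Counts were tested with edgeR 4.0.16 (quasi-likelihood, robust, TMM, filterByExpr, adjusted p under 0.05) in R 4.3.3, on all 6 libraries, on those numbered 1 and 2, and for the interaction, after tests on simulated data. All 9 members passed the filter. DESeq2 1.42.0 and limma 3.58.1 (voom) were alternatives. CPM, shares and exact permutation tests used Python 3.11.15. Members and lists were chosen with earlier results of these data known. The named miRNAs were all members, the 3 closest profiles to each 5p member, and, in the lists, those called. miR-182-5p, which was not called, was named after values were seen. Some cell type markers were also named singly without being called, among them miR-1a-3p, miR-206-3p and miR-199a-3p. The comparison of sets and 7 further ratios were added after values were seen. Intervals and floors cover counting error only.

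Same-number libraries deviated together from their group means (r = 0.31, 0.34 and 0.41 over 456 miRNAs), and the numbers served as a block in an alternative fit. CIH library 2 with control library 1 (r = 0.40) and CIH library 1 with control library 2 (r = 0.21) did so too. Within the libraries numbered 1 and 2 r was 0.051, so pairing by number is not shown there. Libraries of a group differed beyond counting noise (chi-square per degree of freedom 135 or more). Nothing says that they came from separate animals, so the p-values rest on a spread among libraries that may be technical.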

Additional observations from a re-analysis of the deposited data

Results flagged for a closer look

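edgeR's interaction test called 5 of the 9 members (adjusted p under 0.05). Their CIH difference was not the same in the pair numbered 3 as in the libraries numbered 1 and 2. Over all 456 miRNAs the test called 30.3%, with 13.6% on the lower side. With total counts as the only scaling, miR-30e-3p and miR-30f were not called. The log2 difference was lower in the pair numbered 3 by -2.33 for miR-30a-5p, -3.24 for miR-30a-3p, -3.38 for miR-30c-2-3p, -2.03 for miR-30e-3p and -1.41 for miR-30f. The pair numbered 3 has 1 library for each group, which the fit assumes to vary like the libraries numbered 1 and 2, so the test takes in anything that sets these 2 libraries apart, whether or not it comes from CIH.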

How the results depend on the processing

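miR-30a-5p was lower in CIH under every alternative of both comparisons, from -2.13 to -0.95 over all 6 libraries and from -1.24 to -0.44 within the libraries numbered 1 and 2, where its call changes as given above. Its share within the family was lower in CIH, and those of miR-30b-5p, miR-30c-5p and miR-30d-5p higher, under every alternative run. All of these alternatives kept miR-30a-5p in the denominator, so its lower share by itself raises the others. Shares with miR-30a-5p left out were not computed. The 0 calls over all 6 libraries stayed 0 under all 14 alternatives, and the replicate block gave 0 there and 48 within the libraries numbered 1 and 2, against 43 without it, and changed no member's call but that of miR-30a-5p. The count of 43 was 9 to 97 when each library was left out, where the lone library of a group is taken to vary as much as the others. The split of those calls was 7 higher and 27 lower with total counts, against 19 and 24. The interaction calls split into 137 higher and 21 lower with total counts, against 76 and 62.

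Every member but miR-30a-5p and miR-30c-2-3p changed sign in at least 1 alternative over all 6 libraries, also some with large differences, and the cause was not tested. Over all 6 libraries, leaving out each library gave -2.59 to 0.075 for miR-30a-3p, -0.055 to 0.66 for miR-30b-5p, -0.50 to 0.60 for miR-30c-5p, -0.41 to 0.17 for miR-30d-5p, -0.99 to 0.16 for miR-30e-5p, -1.78 to 1.20 for miR-30e-3p and -1.99 to 1.08 for miR-30f, where 0.075, 1.20 and 1.08 are the values without control library 3. The range of miR-30c-2-3p was -2.28 to -0.38. miR-30c-5p was also -0.086 with size factors of the DESeq2 type, -0.0064 with DESeq2 and -0.033 with miR-30 names left out of the TMM factors, and miR-30d-5p was 0.060 with total counts. Within the libraries numbered 1 and 2 the ranges were -0.18 to 0.10 for miR-30a-3p, -0.28 to 0.20 for miR-30b-5p, -0.18 to 0.27 for miR-30c-5p, -0.54 to 0.071 for miR-30d-5p and -0.82 to 0.16 for miR-30e-5p, and total counts gave -0.11 for miR-30c-5p and -0.065 for miR-30f.

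For the interaction, total counts gave 0.92 for miR-30c-5p and 0.80 for miR-30e-5p, no filter on low counts gave 0.14 for miR-30c-5p, and leaving out a library gave -0.15 to 0.24 and -0.48 to 0.43 for these names. Between the sets, the 114 calls were 60 with total counts and 2 to 253 when a library was left out, with -0.60 to 1.78 for miR-30a-5p and -0.70 to 2.73 for miR-30c-2-3p.

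Of the shares (CIH minus control, in percentage points), leaving out a library gave -0.721 to 0.187 for miR-30a-3p, -0.160 to 0.0066 for miR-30c-2-3p, -1.66 to 4.39 for miR-30e-5p, -0.066 to 0.326 for miR-30e-3p and -0.044 to 0.114 for miR-30f. In the libraries numbered 1 and 2 alone the share was 0.182 for miR-30a-3p and 0.041 for miR-30c-2-3p, and in the pair numbered 3 it was -0.043 for miR-30e-3p. The log2 arm ratio of miR-30e ran from -1.95 to 0.996 when a library was left out and was 1.12 in the pair numbered 3, where that of miR-30a was 0.17. The comparison of sets, the libraries left out of the interaction and the sets taken alone for shares and ratios were chosen after seeing the data. Depth limits levels to the floor of 0.266 to 0.477 CPM, which every member exceeded.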
